A study of Homo sapiens with 25 samples.

Results

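Distal H3K27ac peaks inside PML domains are acetylated sites away from gene starts that lie within the broad stretches of chromatin where PML was found. They were chosen by the measured positions of H3K27ac, PML and H3K4me3 in MDA-MB-231, an established line from a human breast cancer of the triple-negative kind, which lacks hormone receptors and HER2 amplification. A control H3K27ac peak was a member when its midpoint lay in a PML domain and more than 2.5 kb from every protein-coding transcription start, and when it overlapped no H3K4me3 peak of control or PML knockdown cells. Of 42320 control H3K27ac peaks on chromosomes 1 to 22 and X (42396 in the whole list), 3747 met the rule. Of the 6213 peaks with a midpoint in a PML domain, 1130 fell within 2.5 kb of a start, a further 740 overlapped a control H3K4me3 peak and 596 more overlapped an H3K4me3 peak of the knockdown list only.

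The study profiled chromatin in this line by immunoprecipitation and sequencing after fixation with disuccinimidyl glutarate and formaldehyde. H3K27ac, H3K4me3, H3K9me3 and LMNB1 (lamin B1) were each profiled in 2 libraries of control cells and 2 of cells in which PML was silenced with a lentiviral short hairpin RNA. PML itself was profiled in 3 libraries titled without a condition. The labels do not say what the control cells received, how many hairpins were used or how far PML was reduced, and no PML library was titled as knockdown. Peaks were called by the authors on both replicates together, so each mark and condition gives 1 list, the read depth is unknown, and differences between conditions are given with neither a test nor replicate error. A site absent from a list did not reach the peak caller's limit and may still carry the mark. Fold enrichment, the authors' ratio of signal over background at a peak summit, ranks peaks within 1 list, and folds of the control and knockdown lists are not on a common scale. The knockdown fold given for a member is the highest among the knockdown peaks that overlap it. Neighbouring members can thus share the fold of a single wide knockdown peak, whose summit may lie outside them.

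H3K27ac is laid down by the acetyltransferases p300 and CBP and marks active promoters and enhancers. Sites that carry it without H3K4me3, away from gene starts, are commonly read as candidate enhancers, which transcription factors such as AP-1 (dimers of FOS and JUN proteins) bind in many mesenchymal and basal cancer cells. PML is the scaffold of nuclear bodies, and lamina-associated chromatin, which LMNB1 contacts, is typically poor in active genes. H3K27ac sits on the nucleosomes that flank a factor-bound gap, so the summit of a peak is often beside the bound sequence and not on it.

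The sequences of the strongest members, a strong member without a knockdown counterpart, and the strongest knockdown site without a control counterpart are shown first, because the comparisons below turn on such sites. Each is the 300 bases around the summit in hg38, and capitals mark matches to any of 12 short motifs spelled out further on; each site is named by its nearest protein-coding gene.
TGFB2 site, highest fold enrichment (chr1:218705608-218705907, plus strand): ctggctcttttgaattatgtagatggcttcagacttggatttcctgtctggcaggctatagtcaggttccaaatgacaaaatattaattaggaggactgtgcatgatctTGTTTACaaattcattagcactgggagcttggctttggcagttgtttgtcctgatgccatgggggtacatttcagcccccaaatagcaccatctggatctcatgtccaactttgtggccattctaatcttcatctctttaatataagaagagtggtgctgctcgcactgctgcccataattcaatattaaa
MC3R site, second in fold enrichment (chr20:56222467-56222766, plus strand): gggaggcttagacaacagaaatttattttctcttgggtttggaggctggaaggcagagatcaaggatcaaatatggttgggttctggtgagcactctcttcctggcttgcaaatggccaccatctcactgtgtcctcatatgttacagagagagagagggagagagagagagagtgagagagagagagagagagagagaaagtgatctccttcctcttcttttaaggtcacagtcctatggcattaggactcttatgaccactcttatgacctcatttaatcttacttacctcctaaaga
APCS site, next in fold enrichment (chr1:159597774-159598073, plus strand): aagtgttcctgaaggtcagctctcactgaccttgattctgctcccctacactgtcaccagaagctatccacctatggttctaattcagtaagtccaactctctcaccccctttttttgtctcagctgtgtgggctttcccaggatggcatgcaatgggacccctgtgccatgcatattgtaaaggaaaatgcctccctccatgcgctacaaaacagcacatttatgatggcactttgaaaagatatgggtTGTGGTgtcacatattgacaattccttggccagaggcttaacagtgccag
PCTP site, no knockdown peak (chr17:55794998-55795297, plus strand): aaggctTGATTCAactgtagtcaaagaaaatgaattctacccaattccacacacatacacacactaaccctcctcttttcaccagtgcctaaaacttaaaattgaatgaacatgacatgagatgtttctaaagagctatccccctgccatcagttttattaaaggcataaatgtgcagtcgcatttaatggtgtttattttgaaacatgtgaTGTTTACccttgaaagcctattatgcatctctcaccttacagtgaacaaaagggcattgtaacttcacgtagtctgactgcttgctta
TSHZ2 site, knockdown list only (chr20:53331333-53331632, plus strand): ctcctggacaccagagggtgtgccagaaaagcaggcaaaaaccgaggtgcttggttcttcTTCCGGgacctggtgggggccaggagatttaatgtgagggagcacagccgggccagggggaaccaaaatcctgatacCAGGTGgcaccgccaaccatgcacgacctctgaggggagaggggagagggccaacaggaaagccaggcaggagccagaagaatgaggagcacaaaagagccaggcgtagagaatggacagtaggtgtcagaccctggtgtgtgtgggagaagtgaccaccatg

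The strongest member had a control fold enrichment of 51.7 and a knockdown one of 30.7. It was 5208 bp long (chromosome 1, 218703438 to 218708645), intergenic, and 359.8 kb from the nearest start of TGFB2 (ENSG00000092969.12), which encodes a TGF-beta ligand that promotes mesenchymal states. The site nearest to MC3R, a melanocortin receptor gene with no promoter H3K4me3 peak in either list, had folds of 42.1 and 36.7. The site nearest to APCS, which encodes serum amyloid P of the liver, had 35.7 and 62.8 and lay 10.9 kb from its start. These nearest genes include ones that are not usually active in breast cells, and nearness is a position only.

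The other 7 of the 10 strongest members were nearest to NECTIN3 (folds of 35.6 in control and 22.1 in knockdown), SOX9 (35.5 and 36.7), SEMA3A (35.3 and 26.6), GRIK2 (33.8 and 18.6), BLID (33.5 and 31.8), HTR1B (33.3 and 36.0) and IPMK (32.7 and 33.4). NECTIN3 encodes a cell adhesion molecule, SOX9 a developmental transcription factor, SEMA3A a guidance cue, GRIK2 a glutamate receptor subunit and HTR1B a serotonin receptor. Every one of the 10 overlapped a knockdown H3K27ac peak, as did all 4233 control H3K27ac peaks in the highest decile of fold enrichment. Only the GRIK2 site of the 10 lay in an intron of a protein-coding gene, GRIK2 itself, and 8 of the 10 lay in a control LMNB1 domain, the exceptions being the TGFB2 and NECTIN3 sites.

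As a whole the members were short and weak beside all control H3K27ac peaks, which had a median length of 1006 bp and a median fold of 5.54. They were slightly longer and higher in fold than distal peaks outside PML domains. Their median length was 853 bp (quartiles 462 and 1355) and their median fold enrichment 4.81 (quartiles 3.71 and 7.17, lowest 1.78). The median -log10 q, the authors' measure of confidence, was 7.14 against 14.6 for all control H3K27ac peaks. Distal peaks outside PML domains, taken by the same rule, had medians of 825 bp, 4.45 in fold and 8.001 in -log10 q. The other 2466 H3K27ac peaks in PML domains, at promoters or with H3K4me3, were stronger, with a median fold of 7.97 and a median length of 1329 bp. All these values come from the list that chose the members and are given as a description.

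The few sites closest to the 2.5 kb limit varied in fold enrichment on both sides of it. Just beyond that distance lay members near TPM4 (2544 bp from the start, fold 2.58), PKN2 (2565 bp, 6.09) and FAM20A (2565 bp, 11.9). Just within it, and so not members, lay peaks without H3K4me3 near SHC4 (2471 bp, 3.27), ADGRF1 (2455 bp, 20.5) and SCYL3 (2428 bp, 5.05). All 6 overlapped a knockdown peak, as did 91.6% of all control H3K27ac peaks.

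Members lay far from protein-coding starts. The median distance to the nearest protein-coding start was 120.0 kb (quartiles 39.0 and 325.7), against 33.5 kb for distal peaks outside PML domains, and 1707 members (45.6%) had a start within 100 kb, against 78.5%. By the midpoint, 1369 members (36.5%) were in introns of protein-coding genes, 60 (1.60%) in exons, 879 (23.5%) in bodies of long noncoding RNA genes alone and 1439 (38.4%) in none of these. Outside PML domains introns held 54.0% of distal peaks. The member farthest from any start, on chromosome 4 from 33836399 to 33838138, was 2373 kb from ARAP2, with a fold of 4.55 in control and 9.05 in knockdown. A second site of that gene desert had folds of 14.1 and 17.1, and the next farthest were nearest to CELF4, PIK3C3 and CDH6. These 5 remote sites all overlapped a knockdown peak, as did 82.9% of all members and 91.6% of all control H3K27ac peaks.

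Distal H3K27ac peaks were sparser in PML domains than outside, with 3.86 per Mb against 7.82. The step lay at the border: 7.17 per Mb in the first 50 kb outside, 5.62 in the first 50 kb inside, 4.30 from 50 to 100 kb inside, and between 3.26 and 4.06 farther in. Deep sequence was not empty, since 1747 members lay more than 1000 kb from a border at 3.83 per Mb. The 5 deepest members lay in the longest PML domain, on chromosome 12 around PPFIA2 and ACSS3, between 10883 and 11312 kb from its border, and had folds from 3.39 to 10.8. In that group the ACSS3 site was the strongest and overlapped a knockdown peak (10.7), as did 1 of the 4 nearest to PPFIA2, a gene of synaptic vesicle docking.

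**Figure D1:**
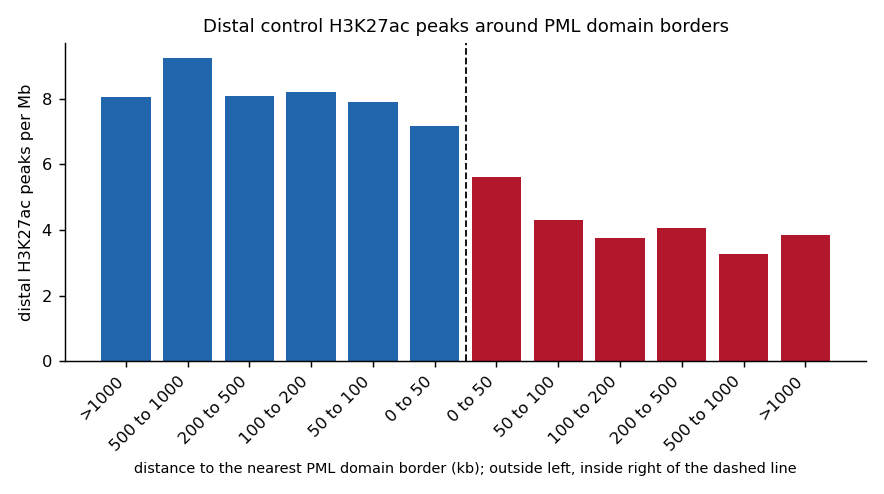
Distal control H3K27ac peaks per Mb of gap-free sequence on chromosomes that carry PML domains (y axis) against distance to the nearest PML domain border in kb (x axis), outside in blue and inside in red. Density goes from 7.17 per Mb just outside to 5.62 just inside, and from 50 kb inward stays between 3.26 and 4.30.

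Members were spread unevenly over the domains. Of 420 PML domains, 336 held at least 1 member, the median was 4, and the 20 domains with the most held 35.5% of all members. The 84 domains without a member had a median length of 0.572 Mb, against 1.45 Mb for the rest. The chromosome 12 domain from 70020001 to 92826000 held 160, with 10 nearest to ATP2B1 (a calcium pump), 9 to BTG1 (an antiproliferative factor) and 9 to DUSP6 (a phosphatase that inactivates ERK). The chromosome 1 domain from 68391001 held 106 (10 each nearest to DDAH1 and LRRC7) and the chromosome 11 domain from 88011001 held 103 (14 nearest to ARHGAP42). The chromosome 6 domain from 44748001 held 101, with 20 nearest to DST (dystonin, a cytoskeletal linker) and 12 to RUNX2, and the chromosome 7 domain from 7650001 held 84, with 7 nearest to ETV1. In members per Mb these 5 domains ran from 5.18 to 7.37, against a median of 2.83 over all domains.

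After PML knockdown most of the sites were still in the H3K27ac list. A knockdown peak overlapped 3108 members (82.9%) and none overlapped 639 (17.1%). The background, control H3K27ac peaks of any kind without a knockdown peak, was 8.41%, and among distal peaks outside PML domains it was 13.6%, so the share overlapped differed from that of the like peaks outside by -3.43 percentage points. It was 5.27% for the other H3K27ac peaks in PML domains. Across chromosomes the members' share without a knockdown peak ran from 9.65% to 23.7%, and it was above that of distal peaks outside on 19 of 22 autosomes, the exceptions being chromosomes 7, 14 and 15. The H3K4me3 condition in the rule uses the knockdown cells, so it bears on this share: with the control H3K4me3 list alone, 85.1% of 4343 peaks were overlapped in PML domains and 89.0% outside.

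Members without a counterpart had low folds. Their median control fold was 3.68 and their median length 409 bp, against 5.33 and 995 bp for members that were overlapped. Distal peaks outside PML domains differed likewise, with 3.39 and 372 bp against 4.77 and 928 bp. Among members in deciles 8 to 10 of fold enrichment over all control peaks (8.36 or more), 1 lacked a knockdown peak. At lower folds the members were overlapped less often than distal peaks outside PML domains of the same decile of fold enrichment, with 58.6% against 71.0% in decile 2, 69.9% against 78.3% in decile 3 and 75.3% against 84.4% in decile 4. With the outside peaks weighted to the members' fold enrichment, the shares were 82.9% and 88.1%. Weighted by -log10 q instead they were 82.9% and 85.3%. No test was run on these differences, since peaks of 1 list are not replicates.

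**Figure D2:**
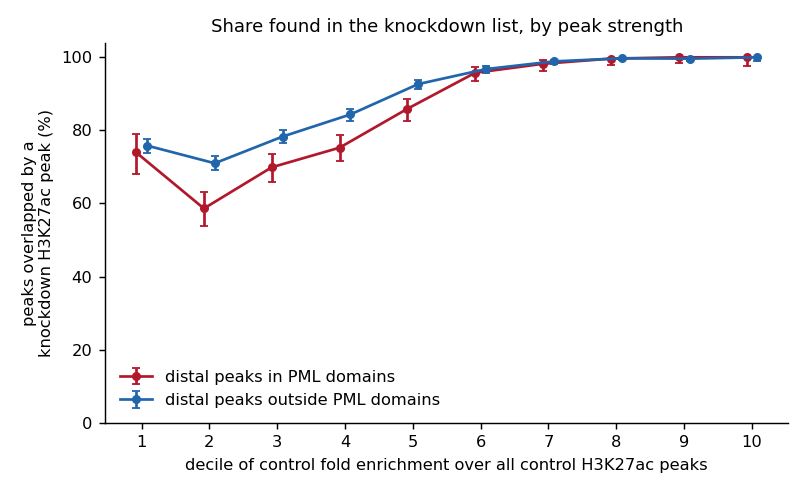
Share of distal control H3K27ac peaks overlapped by a knockdown H3K27ac peak (y axis, %) in each decile of control fold enrichment (x axis), inside PML domains in red and outside in blue; bars are 95% Wilson intervals that count peaks and hold no replicate error. The red points lie below the blue ones in deciles 2 to 5 (58.6% against 71.0% in decile 2), and both are at 99.6% or more in deciles 8 to 10.

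The stronger members without a knockdown peak included those nearest to PCTP (control fold 8.14, chromosome 17 from 55794290 to 55795754), HSD17B2 (7.19), SLC5A8 (7.07) and ERBB4 (7.07). PCTP encodes a phosphatidylcholine transfer protein, HSD17B2 an enzyme that inactivates estradiol, SLC5A8 a monocarboxylate transporter and ERBB4 a receptor tyrosine kinase. These 4 lay in LMNB1 domains of both lists, as did 67.9% of all members. The PCTP and ERBB4 sites were in introns of those genes.

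The same rule on the knockdown list gave nearly as many sites, 3748, while distal peaks outside PML domains went from 15180 to 16370. Of these 3748, 739 (19.7%) had no control H3K27ac peak. The background was 15.5% over all knockdown H3K27ac peaks and 23.3% for distal peaks outside PML domains. The 739 sites were weak too (median fold 3.96 against 6.18 with a control peak), as outside PML domains (3.76 against 5.80). The strongest was in an intron of TSHZ2, a zinc finger homeobox gene (fold 12.7, chromosome 20 from 53331043 to 53332400), followed by sites nearest to IVNS1ABP (10.5), HSBP1 (9.60, in an intron of CDH13, which encodes T-cadherin), COL11A1 (8.86) and BBS10 (8.68). Within PML domains 639 sites were thus in the control list alone and 739 in the knockdown list alone.

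Members were sparser in the parts of PML domains that carried LMNB1 or, with it, H3K9me3. A control LMNB1 domain held 2866 members (76.5%), though such domains covered 89.6% of PML length, and control H3K9me3 domains held 1012 (27.01%) and covered 42.9%. Per Mb of PML domain there were 2.16 members where both LMNB1 and H3K9me3 lay in the control lists, 4.27 with LMNB1 alone, 9.10 with H3K9me3 alone (16.0 Mb) and 8.64 with neither. Median folds in these 4 settings were 4.87, 4.84, 5.43 and 4.58. Distal peaks outside PML domains were in control LMNB1 domains in 2.46% of cases and in H3K9me3 domains in 5.45%. In the knockdown lists LMNB1 domains held 71.5% of members and 85.9% of PML length, and H3K9me3 domains held 8.86% and 13.7%. Distal peaks outside PML domains were in knockdown LMNB1 domains in 2.15% of cases. They were in knockdown H3K9me3 domains in 9.10%, slightly above the share of members.

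**Figure D3:**
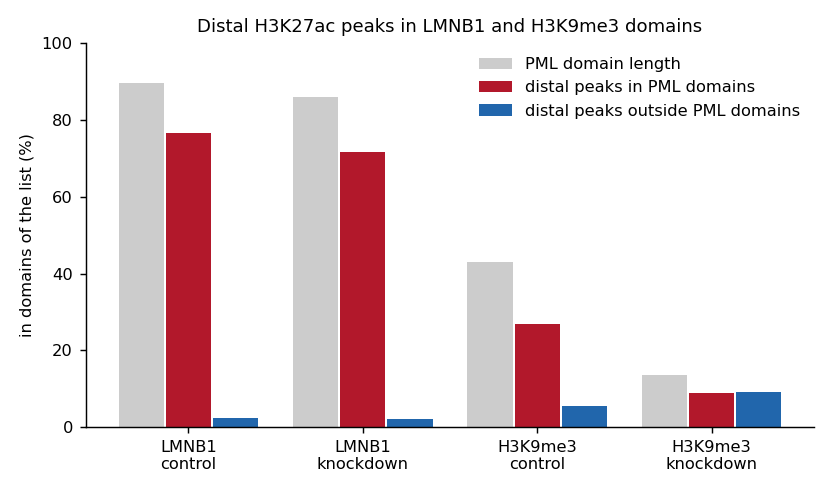
Share (y axis, %) of PML domain length in grey, of members in red and of distal H3K27ac peaks outside PML domains in blue that lay in LMNB1 or H3K9me3 domains of the control or knockdown lists. In each list the members' bar is below the PML length, by the widest margin for control H3K9me3 (27.01% against 42.9%), and for LMNB1 far above the peaks outside.

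Sequence with H3K9me3 in the control list alone held about as many distal H3K27ac peaks in either list. In the 284.0 Mb of PML domain with an H3K9me3 domain in the control list alone, distal peaks numbered 694 in the control and 690 in the knockdown list, or 2.44 and 2.43 per Mb. Of the 694, 134 (19.3%) had no knockdown peak, and of the 690, 155 (22.5%) had no control peak. In the 132.5 Mb with H3K9me3 in both lists the numbers were 318 and 371 (2.40 and 2.80 per Mb), with 45 (14.2%) in the control list alone and 105 (28.3%) in the knockdown list alone. In PML domain with H3K9me3 in neither list they were 2721 and 2675, with 456 (16.8%) and 477 (17.8%) likewise. Of these 3 settings, the share of sites seen in the knockdown list alone was highest where H3K9me3 was in both lists.

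The same counts were made for LMNB1. In the 54.9 Mb of PML domain with LMNB1 in the control list alone, distal peaks numbered 322 and 335 (5.87 and 6.11 per Mb), with 43 (13.4%) in the control list alone and 65 (19.4%) in the knockdown list alone. Where LMNB1 lay in the knockdown list alone they numbered 136 and 116, with 31 (22.8%) and 20 (17.2%) likewise. In the large part with LMNB1 in both lists they numbered 2544 and 2573, with 446 (17.5%) and 527 (20.5%) likewise. Relative to sequence with the domain in both lists, sites in the control list alone were thus a smaller share where LMNB1 was in the control list alone (13.4% against 17.5%) and a larger one where H3K9me3 was (19.3% against 14.2%). Sites in the control list alone were thus a larger share where LMNB1 was in the knockdown list alone than where it was in the control list alone. Outside PML domains the counts for these settings were 23 of 106 and 19 of 152. These differences were not tested.

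Members formed few large clusters. Neighbours were joined over gaps of up to 12.49 kb, the widest gap joined under the set limit. In this way 1381 members (36.9%) fell into 590 clusters of at least 2, and 12 clusters held 5 or more. Single members lacked a knockdown peak in 18.7% of cases and clustered ones in 14.2%, with median control folds of 4.84 and 4.78. The 2 clusters with THBS1 as their nearest gene lay on chromosome 15. THBS1 encodes thrombospondin 1, a matrix protein that inhibits angiogenesis and activates TGF-beta. The first (39231998 to 39274143, 307 to 348 kb from the gene) had 10 members with control folds from 3.27 to 16.6, and 9 had a knockdown peak (4.74 to 19.3). The second (39118135 to 39141307) had 7 members with folds from 5.05 to 18.3, and 6 had a knockdown peak. All 17 lay in a control H3K9me3 domain and none in a knockdown one, and none was in an LMNB1 domain. Of all members, 18.5% were in an H3K9me3 domain of the control list alone and 19.9% in no LMNB1 domain of either list.

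The other 3 of the 5 clusters with the most members were on chromosome 11 near KCNA4, a potassium channel gene whose start was at least 688 kb away (29280249 to 29329368, 8 members), on chromosome 11 beside BLID (122136137 to 122169672, 8 members), and on chromosome 1 near FGGY, a carbohydrate kinase gene (59117106 to 59157640, 6 members). In each, all members but 1 had a knockdown peak. The members without one had control folds of 3.33, 3.70 and 4.28, each below the median of its cluster. The strongest members of these clusters had folds of 12.1, 12.9 and 13.0.

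**Figure D4:**
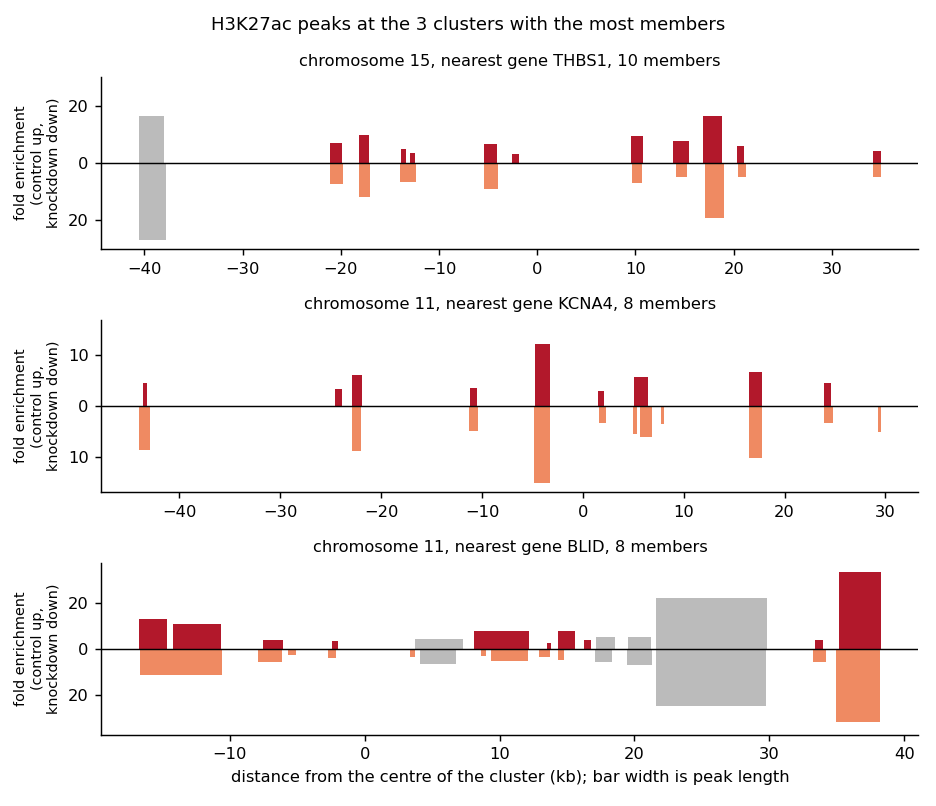
H3K27ac peaks at the 3 clusters with the most members, with fold enrichment upward for the control list and downward for the knockdown list (y axis; scales differ between panels and lists) against distance from the cluster centre in kb (x axis). Flanking peaks beyond the cluster are drawn too. Coloured bars meet the rule for distal peaks in PML domains and grey bars do not; the control bars without a bar below them are the members with no knockdown peak, 1 in each cluster.

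The genes nearest to members were partly active. Within 100 kb, 809 of 19970 protein-coding genes (4.05%) were nearest to a member, and 731 of them started in a PML domain. Of those 731, 57.6% had an H3K4me3 peak within 1 kb of the canonical start in the control list, against 36.9% of the 1881 genes that started in PML domains and were not nearest to a member. For H3K27ac the shares were 47.3% and 30.4%. Over all protein-coding genes they were 61.8% and 50.9%. In the knockdown lists the shares for the 731 genes were 58.1% and 47.3%.

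Within 100 kb, genes nearest to many members included DST with 20 (18 with a knockdown peak; control folds 2.45 to 8.92), BLID with 13, ARHGAP42 with 11, and DDAH1, DOCK4 and JAG1 with 10 each. COL5A2, CRIM1 and SUCLG2 had 9 each. DDAH1, which encodes an enzyme that degrades methylated arginines, had 7 of 10 members with a knockdown peak, and the other 3 had control folds of 5.18, 3.94 and 2.93. At JAG1, which encodes a Notch ligand, 9 of 10 members had a knockdown peak and all 10 lay in an LMNB1 domain of the control list and none in one of the knockdown list. The 10 members of DOCK4 were all in that state too, as were 8.59% of all members. Members of a gene are neighbours, so they are not separate cases of a domain difference. COL5A2, a fibrillar collagen gene with no H3K4me3 or H3K27ac promoter peak in either list, had 9 members from fold 2.28 to 12.6, and all 9 had a knockdown peak. Beside these counts, a knockdown peak overlapped 82.9% of all members and 91.6% of all control H3K27ac peaks.

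Among 20 genes tied to metastasis of this line, 5 were nearest to a member within 100 kb: TNC, KYNU, VCAM1, ADAMTS1 and MMP2. The share of all protein-coding genes nearest to a member was 4.05%, and it was 25% for this list. Members lie in PML domains, where 7 of the 20 genes started. Of all 2612 genes that started there, 731 were nearest to a member within 100 kb. Lists were chosen with results known, so no list was tested. The 5 genes had 16 members, of which 5 (31.3%) had no knockdown peak. The background for all lists was 17.1% of all members, 13.6% of distal peaks outside PML domains and 8.41% of all control peaks. TNC, which encodes the matrix protein tenascin C, had 7 members with control folds from 3.03 to 8.97, and the 2 without a knockdown peak had folds of 3.03 and 3.33. KYNU, which encodes kynureninase of tryptophan breakdown, had 3 members: those with folds of 3.70 and 4.40 had no knockdown peak and the one with 6.37 had a knockdown fold of 5.81. The KYNU promoter had H3K4me3 and H3K27ac peaks in the control list and neither in the knockdown list. Among genes of the lists below, the ZEB2 promoter had an H3K27ac peak and the RUNX2 promoter an H3K4me3 peak in the control list only. Over all protein-coding genes, promoters with an H3K4me3 peak were 61.8% in control and 63.7% in knockdown. MMP2, a matrix metalloproteinase gene, had 1 member 7.03 kb from its start with folds of 12.2 and 11.4. VCAM1, a cell adhesion receptor gene, had 3 members, all with a knockdown peak, and neither VCAM1 nor MMP2 had a promoter peak in any list.

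Of 15 genes of epithelial-mesenchymal transition, 5 started in PML domains. CDH2, ZEB2, PRRX1 and TWIST1 (26.7% of the list) were nearest to 10 members within 100 kb, and 9 of these had a knockdown peak. CDH2, which encodes N-cadherin, had 4 members with control folds of 4.22, 7.67, 3.88 and 13.6 along the chromosome, and knockdown folds of 5.39, 24.4, 7.94 and 11.9. ZEB2, a repressor of E-cadherin, had 3 weak members of 3.03 to 3.70, and PRRX1, a mesenchymal homeobox gene, had members of 6.18 and 13.0. The TWIST1 member (fold 4.16, 93.1 kb from the start) had no knockdown peak, and it lay in an LMNB1 domain of the control list and none of the knockdown list. The other 9 were in the same LMNB1 state in both lists, and 8.59% of all members were in an LMNB1 domain of the control list alone.

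Of 10 basal and mesenchymal breast genes, 3 started in PML domains. CAV1, CAV2 and MET were nearest to 15 members within 100 kb, which lie side by side on chromosome 7 from 116399667 to 116778338. Caveolins 1 and 2 coat membrane pits, and MET is the receptor for hepatocyte growth factor. A knockdown peak overlapped 13 of the 15. The strongest, 2.94 kb from a start of MET, had folds of 12.8 and 16.8. Neighbouring CAV2 members with control folds of 4.64 and 4.87 both overlapped a knockdown peak of fold 25.8. That value belongs to the summit of the knockdown peak and was not measured at each member. All 15 were in LMNB1 domains of both lists, as were 67.9% of all members.

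Among 20 matrix and adhesion genes, 5 started in PML domains. Of the 20, 6 (30%) were nearest to 13 members within 100 kb, of which 11 had a knockdown peak. FBN1, which encodes fibrillin 1, had 5 members of fold 3.98 to 7.43, all with a knockdown peak and all in an LMNB1 domain of the control list only. Of all members, 8.59% were in that LMNB1 state. TIMP3, a metalloproteinase inhibitor gene, had 3 members (3.68 to 13.3), and the collagen gene COL1A2 had 1 of fold 10.5, all with a knockdown peak. COL3A1, another collagen gene, had 2 members, of which the one of fold 4.10 had no knockdown peak and the one of 3.70 had one. The single member of the integrin gene ITGB1 (2.92) had no knockdown peak, and that of ITGB8 (3.47) had one.

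Of 20 AP-1, TEAD and RUNX factor genes, 3 started in PML domains. YAP1, JUN and RUNX2 were nearest to 10 members within 100 kb, and 3 of these members had no knockdown peak. YAP1, whose product is the Hippo pathway coactivator of TEAD factors, had 6 members, with control folds from 3.27 to 14.4 and the strongest at 17.1 in knockdown. JUN, which encodes an AP-1 subunit, had members of 5.82 and 19.98, both with a knockdown peak. RUNX2, a factor of bone formation, had within that distance 1 member of 6.42 (11.2 in knockdown) and 1 of 4.22 without a knockdown peak. Of 15 Hippo and AP-1 targets, 2 started in PML domains. TGFB2 and CCN1 were nearest to 9 members within 100 kb, 2 without a knockdown peak, both near TGFB2 (folds 3.14 and 3.15).

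Of the other lists, the 20 luminal genes gave 1 member within 100 kb, near FOXA1 (fold 3.86, no knockdown peak), and the 20 hypoxia genes gave 4, all near PLOD2, a collagen lysyl hydroxylase gene, with 2 lacking a knockdown peak. Of 20 genes of other tissues, 15 started in PML domains, and 4 of these were nearest to a member within 100 kb. Over all genes that started in PML domains it was 731 of 2612. The 4 genes had 1 member each, all with a knockdown peak. They included LRRC4C, NCAM2 and RBFOX1, with control folds of 3.85, 6.83 and 9.03. None of 17 inflammatory, 19 interferon response and 15 PML body genes was nearest to a member within 100 kb. In PML domains started 3 inflammatory genes, 5 interferon genes and no PML body gene. Since 731 of the 809 genes nearest to a member started there, the count for PML body genes says little about them.

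The sequence around members was AT-rich. Mean GC content of the 300 bases at the summit was 42.3% ± 5.76 (SD over 3747 peaks), against 46.9% ± 6.98 for distal peaks outside PML domains and 50.2% ± 9.92 for the other H3K27ac peaks in PML domains. Motifs were searched on both strands. TGANTCA stood for AP-1, GGAATG for TEAD, TGTGGT for RUNX, CCGGAA for ETS, TGTTTAC for forkhead, AGATAA for GATA and TTGCNNAA for CEBP factors. TTCCNGGAA stood for STAT, CAGGTG for snail and ZEB factors and GGGCGG for the GC box, and the longer elements of NF-kB and CTCF were searched too. In these windows an AP-1 match was present in 16.7% of members, 12.9% of distal peaks outside and 10.5% of all control peaks. For GATA the shares were 20.7%, 15.5% and 13.0%, for TEAD 20.5%, 18.9% and 17.6%, and for RUNX 20.02%, 21.7% and 17.9%. For CEBP they were 16.9%, 13.2% and 11.9%, for forkhead 5.47%, 3.93% and 3.67%, and for snail and ZEB factors 16.7%, 23.3% and 21.6%. GC content differed between these groups too, and its part in the shares was not tested. ETS and GC box matches were rare in members (1.97% and 2.35%) and common in the other peaks of PML domains (10.2% and 18.5%).

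AP-1 matches lay beside the summit. Per kb of sequence, members had 0.467 matches within 100 bp of the summit, 1.25 from 100 to 200 bp, 1.71 from 200 to 300 bp, 1.17 from 300 to 400 bp and 0.371 from 900 to 1000 bp. Distal peaks outside PML domains had 0.376, 1.09, 1.65, 1.08 and 0.312, and the other H3K27ac peaks in PML domains had 1.07 at 200 to 300 bp. TEAD matches also peaked there in members (1.100, against 0.602 at 900 to 1000 bp), and RUNX matches less so (1.00 against 0.682). Forkhead matches were also highest there in members (0.267 against 0.185), as were the rarer ETS (0.0961 against 0.0534) and STAT matches (0.0494 against 0.0307). GATA and CEBP matches had no such peak. Within 500 bp of the summit, 68.9% of members had an AP-1 match, as did 65.2% of distal peaks outside and 51.0% of all control peaks. Members with such a match lacked a knockdown peak in 16.3% of cases and those without one in 18.8%; outside the shares were 12.1% and 16.5%. In the 300 bases at the summit the order was the opposite, with 19.8% of members with a match and 16.5% of those without one lacking a knockdown peak, and 15.1% and 13.4% outside, so the direction depended on the window.

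**Figure D5:**
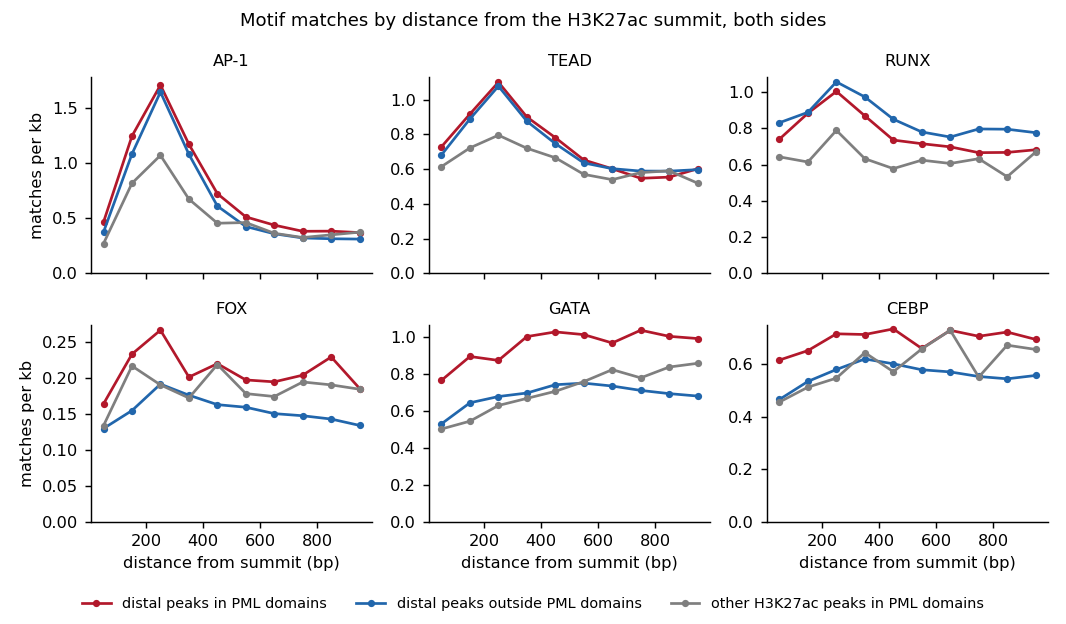
Motif matches per kb (y axis, both strands) in steps of 100 bp from the H3K27ac summit (x axis, both sides pooled) for members in red, distal peaks outside PML domains in blue and the other H3K27ac peaks in PML domains in grey; scales differ between panels. AP-1 and TEAD matches peak 200 to 300 bp from the summit (1.71 and 1.100 per kb in members). RUNX and forkhead matches are also highest there in members (1.00 and 0.267), and GATA and CEBP matches are not.

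Of the 10 strongest members, 7 had an AP-1 match within 500 bp of the summit, and in these the nearest match was 202 to 291 bp from it. They are shown as 60 bases with the match in capitals, because they put letters to the position of the peak in that profile. The sites near APCS, SOX9 and SEMA3A had none.
TGFB2 (chr1:218705496-218705555, plus strand): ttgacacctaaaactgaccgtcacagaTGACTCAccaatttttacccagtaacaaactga
MC3R (chr20:56222385-56222444, plus strand): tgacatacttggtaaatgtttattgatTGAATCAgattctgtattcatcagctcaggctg
NECTIN3 (chr3:110413914-110413973, plus strand): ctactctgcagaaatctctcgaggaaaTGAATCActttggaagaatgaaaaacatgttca
GRIK2 (chr6:101806340-101806399, plus strand): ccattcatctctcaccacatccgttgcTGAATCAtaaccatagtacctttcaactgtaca
BLID (chr11:122189488-122189547, plus strand): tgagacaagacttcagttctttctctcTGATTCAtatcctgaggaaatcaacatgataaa
HTR1B (chr6:77456729-77456788, plus strand): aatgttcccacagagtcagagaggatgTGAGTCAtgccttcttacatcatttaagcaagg
IPMK (chr10:58023802-58023861, plus strand): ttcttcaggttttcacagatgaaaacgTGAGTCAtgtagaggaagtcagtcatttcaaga

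The TGFB2, HTR1B and IPMK sites carried the matches TGACTCA or TGAGTCA, which are the classical AP-1 element and its reverse complement. The MC3R, NECTIN3 and GRIK2 sites carried TGAATCA, and the BLID site TGATTCA. A match is a run of letters and does not show that a factor was bound.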

How the data were processed

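Per the submitters' processing notes the build is hg38, and the tools listed, with no role given, include MACS2 2.2.7.1, Picard 1.104, deepTools and BWA 0.7.12-r1039. The deposited peak lists, in the layout of MACS2, hold for each peak a fold enrichment (a ratio) and the -log10 of a q-value, and the peak names show that both replicates went into 1 call. The deposited domain lists gave 1 score per domain, not used here; their caller appears only in a name, as EDD. Conditions marked ct and pml were read as control and PML knockdown, an assumption. The read depth is unknown, so precision cannot be given.

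Members, gene lists and comparisons were chosen with earlier results of these data known. Starts came from 88858 protein-coding transcripts of GENCODE release 44 on hg38, the build of the files, and distances from peak midpoints. Peaks matched at 1 bp of overlap. Lengths were counted in 1 kb bins without gaps. Named members were the 10 with the highest fold, the 5 highest without a counterpart in the other list (both directions), and the 5 farthest from a border and from a start. The 5 largest clusters and domains, the 10 genes with most members and up to 4 genes a list were also named; MMP2, ITGB1 and ITGB8 were added after their values were seen. Some items that this rule names are not reported here. Motif positions, the 500 bp windows, the AP-1 sites, promoter peaks of nearest genes and gains by domain state were added after the data were seen. There was no test, since each condition has 1 pooled list. The interval code was checked on simulated lists and against bedtools 2.31.1. Tools were pysam 0.24.0, pandas 2.3.3, matplotlib 3.10.9, scipy 1.17.1 and numpy 2.4.6 under Python 3.11.15.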

Additional observations from a re-analysis of the deposited data

How the results depend on the processing

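The number of members was within 1.5 times of 3747 under 8 of 9 other rules (3511 to 4343) and was 2367 with -log10 q of at least 5. The share with a knockdown peak, 82.9%, was 84.7% when a peak within 1 kb counted, 81.1% with equal numbers of peaks, 85.1% with the control H3K4me3 list alone, 86.1% with no H3K4me3 condition and 93.8% for members of -log10 q of at least 5 against any knockdown peak; under all 10 alternatives it was below that of distal peaks outside PML domains. The share of knockdown sites without a control peak, 19.7%, was 17.9%, 17.7%, 17.5%, 15.6% and 8.62% in the same settings, and 24.5% when both lists were limited to a -log10 q of 5 or more, where distal peaks outside gave 25.4%. The difference of -3.43 points was -5.17 points after weighting by fold enrichment and -2.36 points by -log10 q. Within 50 kb of a domain, members in LMNB1 were 79.6% and 74.6% (control and knockdown) and in control H3K9me3 28.7%. In 200 bases the AP-1 share was 8.22%. The settings on H3K4me3, peak edges, weighting by -log10 q and filtering of 1 list alone were chosen after seeing the data. No paired analysis was possible because replicates were pooled in each list; leaving out a replicate was not possible for the same reason. Repeats were not scored, since the genome used had no repeat marks. Copy number of this line was not measured here.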
